A study of Mus musculus with 47 samples.

Results

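The ileum is the last stretch of the small intestine, and a germ-free (GF) mouse is one raised without microorganisms. The daily rhythm of transcripts outside the core clock was described in 11 RNA-sequencing libraries of GF ileum, out of 47 libraries in a series on the duodenum and ileum of GF and conventionally raised (convR, with a gut flora) mice. The members were the libraries labelled as germ-free and as ileum, with 1 library at zeitgeber time (ZT, hours after lights on) 2 and 2 libraries at each of ZT6, ZT10, ZT14, ZT18 and ZT22. They were set against 12 libraries of convR ileum and 12 of GF duodenum, each group with 2 libraries at all 6 times. All animals were male C57BL/6j mice aged 15 to 16 weeks with free access to food, and the labels name no allele or drug treatment for any group. The labels do not say whether both libraries of a time came from separate animals, so the p-values here reflect variation among these libraries alone, which could be technical. The light schedule is not given in the sources used here, and ZT0 to ZT12 is called the light phase and ZT12 to ZT24 the dark phase by convention.

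In mammalian cells CLOCK and ARNTL (BMAL1) switch on genes that carry an E-box in their promoters. PER and CRY proteins later block that step, while the REV-ERB receptors (Nr1d1, Nr1d2) and ROR receptors act on ROR elements, and DBP, TEF and HLF act on D-boxes. The gut epithelium follows this loop and also the daily cycle of feeding, and transcripts of sugar, ion and lipid uptake are textbook examples of gut genes with a daily cycle.

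Each gene was fitted with a 24 h cosine within the 11 GF ileum libraries alone. Levels are given in CPM, the deposited gene counts scaled to an equal effective library total. A gene is called rhythmic where the edgeR quasi-likelihood test of the cosine has a Benjamini-Hochberg adjusted p under 0.05 over all genes tested. The daily range is the fitted peak over the fitted trough of log2(CPM + 0.5), given as a fold. Since 6 times over 1 cycle were sampled, a rhythm here means a shape over 24 h and not a cycle seen to repeat.

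The GF ileum libraries held 24925638 to 36868777 gene counts (median 31767418), against 29116403 to 41911085 in convR ileum and 22546800 to 38216462 in GF duodenum. Most region markers matched the label, and some did not. Fabp6, the ileal bile acid binding protein, lay between 599.8 and 4484 CPM in GF ileum, against 0.210 to 2.41 CPM in GF duodenum. Onecut2, a transcription factor of the proximal gut, lay between 0.356 and 2.02 CPM in GF ileum, against 205.5 to 444.6 CPM in GF duodenum. Ces1f of the ileum list went the other way, with a median of 89.68 CPM in GF ileum and 281.1 CPM in GF duodenum. Of the proximal list, Fads2 (medians 70.04 and 32.12 CPM) and Bco1 (5.643 and 2.001 CPM) were higher in GF ileum than in GF duodenum. All members were kept in the sums that follow. A list of proximal intestine markers summed to 2779 CPM in ZT14 replicate 1, 3404 CPM in ZT18 replicate 2 and 5091 CPM in ZT22 replicate 2, whereas the other 8 libraries lay between 761 and 1193 CPM. The sum of 8 ileum markers ran from 3241 CPM in ZT22 replicate 2 to 7505 CPM in ZT18 replicate 1. Markers of fat tissue summed to 288.4 CPM in ZT22 replicate 1 and to 54.9 to 124.5 CPM elsewhere. A list of 13 pancreas acinar genes summed to 30.67 to 67.27 CPM, highest in ZT6 replicate 2. Of that list Amy2a5, the pancreatic amylase, alone was at 0 in all 11 libraries. None of the 9 proximal markers tested was called rhythmic by edgeR. However, 3 of them had an unadjusted p under 0.05, against 11.8% of all genes tested. Their median range was 1.93-fold, against 1.14-fold over all genes tested. In these bulk libraries fewer cells of a type and less RNA per cell cannot be told apart.

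The GF ileum held 226 rhythmic genes among 16300 tested (1.39%), of which 14 belonged to the clock list and 212 lay outside it. With all libraries, more of these 212 genes peaked at the end of the night than at any other time of day, and few peaked near midday. Fitted peaks lay within 2 h of ZT22 for 72 genes, of ZT14 for 46, of ZT10 for 39, of ZT2 for 28, of ZT18 for 19 and of ZT6 for 8. By phase, 137 of the 212 peaked between ZT12 and ZT24 and 75 between ZT0 and ZT12. Without the 3 libraries high in proximal markers, all from the dark phase, a different set of 438 genes was called. Outside the clock, 198 of that set peaked in the dark phase and 226 in the light phase. Of the 212 genes, 211 were tested in that fit, and 206 of these moved their peak by 1 h or less. Light counts among the genes called also depended on single libraries. The light count was 43 without ZT2 replicate 2 or ZT10 replicate 2, 47 without ZT6 replicate 1 and 49 without ZT22 replicate 1. Dark counts in these 4 fits were 94 to 124. The daily range of the 212 genes ran from 1.30-fold to 4.18-fold with a median of 1.76-fold, against a median of 1.14-fold over all genes tested. It reached 1.5-fold in 171 genes, 2-fold in 60 and 3-fold in 17. Among all genes tested, 1.13% were called with a range of at least 1.5-fold, 0.448% with at least 2-fold, and 11.8% had an unadjusted p under 0.05. Of the 212 genes, 197 are annotated as protein coding. The median standard error of a peak time was 0.607 h.

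The 14 called genes of the clock had a median range of 5.69-fold. Npas2, a partner of ARNTL, peaked at ZT 0.39, Nr1d1 at ZT 7.72, Dbp at ZT 10.2, Per2 at ZT 14.8, Cry1 at ZT 19.0 and Arntl at ZT 23.5. The window near ZT22, with 72 genes outside the clock, also held the called clock genes Arntl and Nfil3 (ZT 22.4). The window near ZT10, with 39 genes, also held Dbp, Nr1d2 (ZT 10.8) and Tef (ZT 11.9). Per1 (adjusted p = 0.0636), Clock (adjusted p = 0.308), Rora, Csnk1e and Csnk1d were tested and not called.

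**Figure D1:**
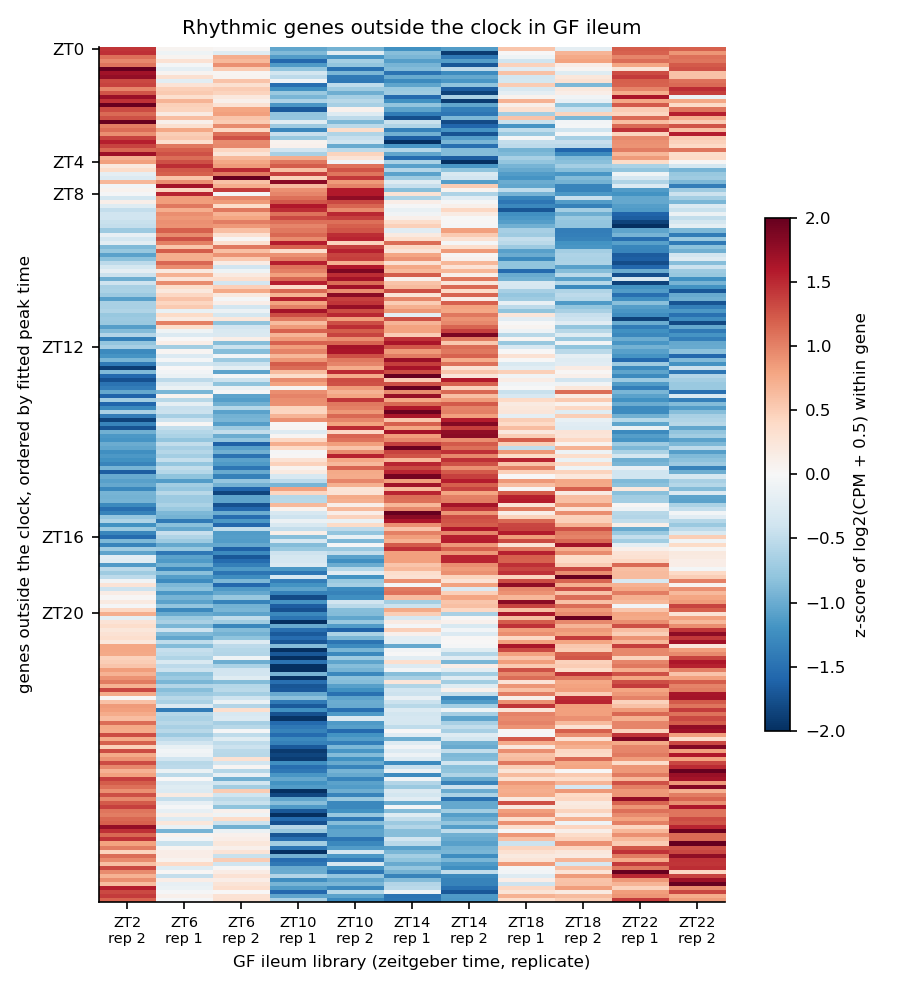
Heat map of the 212 rhythmic genes outside the clock (rows, ordered by fitted peak time) in the 11 GF ileum libraries (columns, by ZT and replicate). Colour is the z-score of log2(CPM + 0.5) within each gene, and the red band of high values moves down the rows as ZT advances, with few rows peaking near ZT6.

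**Figure D2:**
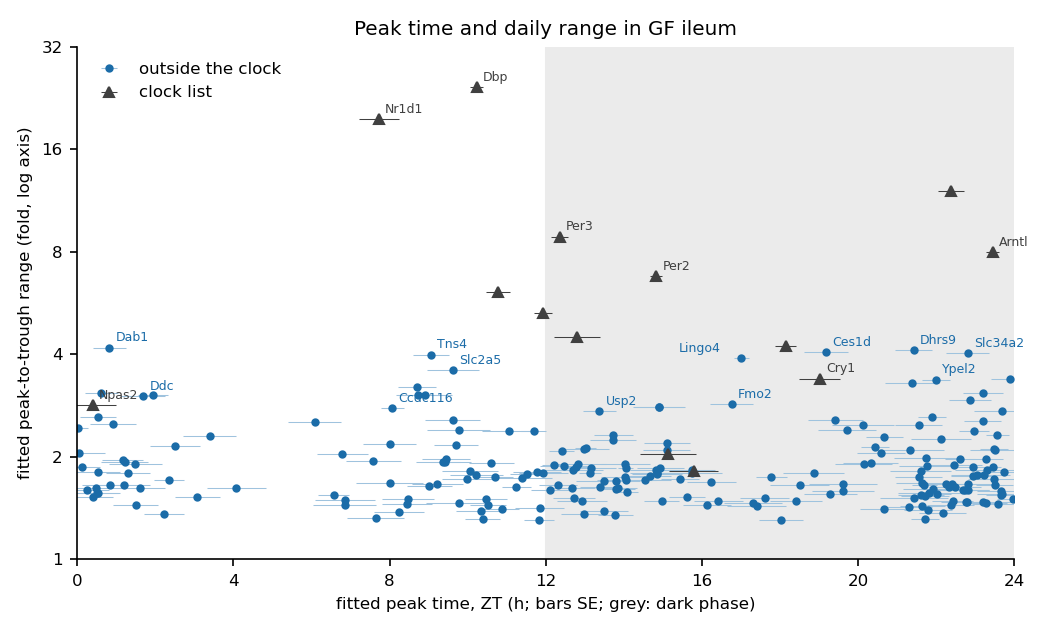
Fitted peak time (x axis, ZT in h, bars give the SE) against the fitted peak-to-trough range (y axis, fold, log axis) for the 212 genes outside the clock (blue circles) and the 14 called clock genes (grey triangles). The grey band marks ZT12 to ZT24, and the genes outside the clock lie between 1.30-fold and 4.18-fold, below most of the clock genes.

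For the 212 genes, called by a test that favours close replicates, the median absolute difference between both libraries of a time was 0.116 to 0.167 on the log2 scale, against 0.150 to 0.173 over all genes. The members next to the threshold were Gas6 (adjusted p = 0.0473), Slc25a33 (0.0473) and Aoc1 (0.0477) on the called side, and Tbcel (0.0502), Tor1aip2 (0.0502) and Irak4 (0.0507) on the other. When each library was left out in turn, 92 of the 212 genes were called in all 11 fits and 120 lost the call in at least 1 fit. Treating time as a factor in place of the cosine called 49 genes in all, and the DESeq2 likelihood-ratio test of the same cosine called 642.

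Sequence context was read for the windows from 250 bases before to 50 bases after the start site (RefSeq, GRCm38.p6). Of the 212 genes, 155 had at least 1 such window, with 203 windows in all. The E-box CACGTG, which reads the same on both strands, occurred in 29 of the 203 windows (14.3%), against 9.45% of the windows of all genes tested and 7.15% of all 32851 windows. It occurred in 8 of 34 windows of genes that peaked near ZT10 (23.5%) and in 9 of 37 near ZT14 (24.3%), but in 1 of 18 near ZT18 (5.56%), 7 of 76 near ZT22 (9.21%), 3 of 30 near ZT2 (10%) and 1 of 8 near ZT6 (12.5%). The ROR element, searched on both strands as TAGGTCA or TGGGTCA preceded by AAN, occurred in 4 of the 203 windows (1.97%), against 0.296% of the windows of genes tested and 0.435% of all. These 4 windows belonged to genes that peaked near ZT22 or ZT2. The D-box, searched on both strands as TTATGTAA or TTACGTAA, occurred in 3 windows (1.48%), against 0.683% of the windows of genes tested and 1.06% of all. No base was shared between matches of these 3 motifs in the 203 windows. The cAMP element TGACGTCA, searched in the same way, occurred in 3 windows (1.48%), against 2.85% of the windows of genes tested. The heat shock element GAANNTTC occurred in 14 windows (6.9%), against 5.84%. These shares describe letters in short windows and carry no test.

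The windows below are shown because they hold one of these motifs and belong to genes described in the following paragraphs. Cipc (chr12:86947093-86947392, plus strand), Slc20a1 (chr2:129198523-129198822, plus strand), Mgam (chr6:40628581-40628880, plus strand), Slc5a1 (chr5:33103969-33104268, plus strand) and Rev1 (chr1:38129617-38129916, minus strand) hold an E-box. Coq10b (chr1:55052520-55052819, plus strand) holds an E-box and a D-box, and Leo1 (chr9:75441274-75441573, plus strand) and Ddc (chr11:11898095-11898394, minus strand) hold a ROR element. Each is printed 5′ to 3′ in the direction of the gene, and the capitals mark the matched motif.
Cipc: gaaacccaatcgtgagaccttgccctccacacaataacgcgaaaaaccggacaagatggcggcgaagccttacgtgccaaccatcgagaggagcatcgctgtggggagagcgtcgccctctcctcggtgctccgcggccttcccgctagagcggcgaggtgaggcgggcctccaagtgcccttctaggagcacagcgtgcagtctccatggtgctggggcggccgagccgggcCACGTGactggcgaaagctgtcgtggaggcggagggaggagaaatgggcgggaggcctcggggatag
Slc20a1: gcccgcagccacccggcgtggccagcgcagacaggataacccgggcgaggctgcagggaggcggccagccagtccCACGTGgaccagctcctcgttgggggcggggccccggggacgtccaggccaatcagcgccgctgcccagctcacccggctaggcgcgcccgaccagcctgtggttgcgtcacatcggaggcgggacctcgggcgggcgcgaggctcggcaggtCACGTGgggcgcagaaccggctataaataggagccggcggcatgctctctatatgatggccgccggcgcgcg
Mgam: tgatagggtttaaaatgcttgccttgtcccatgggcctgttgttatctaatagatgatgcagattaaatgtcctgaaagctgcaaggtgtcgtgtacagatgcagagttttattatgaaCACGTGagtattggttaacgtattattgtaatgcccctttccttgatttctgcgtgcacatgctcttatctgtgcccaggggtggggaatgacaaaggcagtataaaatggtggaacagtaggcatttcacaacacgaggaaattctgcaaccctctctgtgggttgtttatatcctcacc
Slc5a1: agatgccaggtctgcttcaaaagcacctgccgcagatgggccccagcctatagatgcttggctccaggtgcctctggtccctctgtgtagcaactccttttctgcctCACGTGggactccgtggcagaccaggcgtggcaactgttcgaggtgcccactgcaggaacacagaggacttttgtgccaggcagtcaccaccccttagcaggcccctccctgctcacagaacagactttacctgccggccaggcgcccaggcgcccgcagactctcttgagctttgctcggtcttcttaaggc
Rev1: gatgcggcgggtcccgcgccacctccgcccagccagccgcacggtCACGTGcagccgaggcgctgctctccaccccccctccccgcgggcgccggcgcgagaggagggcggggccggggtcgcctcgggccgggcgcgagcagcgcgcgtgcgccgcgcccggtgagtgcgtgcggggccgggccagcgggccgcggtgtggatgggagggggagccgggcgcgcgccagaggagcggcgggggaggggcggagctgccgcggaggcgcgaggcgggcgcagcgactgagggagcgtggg
Coq10b: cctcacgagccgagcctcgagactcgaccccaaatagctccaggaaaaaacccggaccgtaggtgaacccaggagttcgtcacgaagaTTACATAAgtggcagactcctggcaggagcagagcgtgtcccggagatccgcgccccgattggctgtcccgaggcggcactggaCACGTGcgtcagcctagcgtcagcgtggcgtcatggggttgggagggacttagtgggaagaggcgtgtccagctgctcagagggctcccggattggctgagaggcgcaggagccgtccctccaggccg
Leo1: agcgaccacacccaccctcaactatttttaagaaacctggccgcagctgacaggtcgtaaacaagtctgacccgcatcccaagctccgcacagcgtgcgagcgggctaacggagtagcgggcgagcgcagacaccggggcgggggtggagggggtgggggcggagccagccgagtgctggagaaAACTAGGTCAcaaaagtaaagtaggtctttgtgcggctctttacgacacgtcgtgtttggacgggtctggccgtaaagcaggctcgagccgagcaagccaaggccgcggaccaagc
Ddc: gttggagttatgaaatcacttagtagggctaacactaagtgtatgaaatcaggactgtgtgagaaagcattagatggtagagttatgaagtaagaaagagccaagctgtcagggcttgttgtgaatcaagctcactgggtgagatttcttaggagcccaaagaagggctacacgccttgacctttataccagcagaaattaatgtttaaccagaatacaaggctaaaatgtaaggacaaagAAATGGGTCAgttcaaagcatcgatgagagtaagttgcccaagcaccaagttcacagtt

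Near ZT2, at the turn from dark to light, 28 genes peaked. The smallest p belonged to Slc17a4 (ENSMUSG00000021336, chr13:23895890-23915009, minus strand), an organic anion carrier known to carry urate in human intestine. It measured 101 CPM at ZT2, 64.4 and 63.9 CPM at ZT6, 45.02 and 46.4 CPM at ZT10, 42.4 and 43.9 CPM at ZT14, 76 and 59.7 CPM at ZT18, and 94.2 and 93.9 CPM at ZT22. The ZT2 and ZT22 libraries lay above all others, and the ZT10 and ZT14 libraries lay lowest. Its fitted range was 2.43-fold with a peak at ZT 0.01 (SE 0.252 h), at an adjusted p of 2.43e-05 by edgeR. Bok, a member of the BCL-2 family of cell-death regulators (ENSMUSG00000026278, chr1:93685660-93695764, plus strand), measured 22.6 CPM at ZT2, 18.1 and 18.5 CPM at ZT6, 8.69 and 10.8 CPM at ZT10, 10.6 and 7.12 CPM at ZT14, 12.9 and 16.2 CPM at ZT18, and 22.7 and 27.96 CPM at ZT22. Both ZT22 libraries and the ZT2 library were its 3 highest, and the range was 3.08-fold (adjusted p = 0.000803). Acaa1b, a thiolase of peroxisomal fatty acid breakdown, ran from 3.54 to 12.4 CPM and ranged 2.61-fold (adjusted p = 0.00217). Glipr2, a Golgi-associated protein that binds the autophagy factor Beclin 1, ran from 5.87 to 20.98 CPM with its lowest library at ZT14 and ranged 3.04-fold (adjusted p = 0.00061).

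Dab1 and Ddc, both chosen after their values were seen, peaked in the same window with wider ranges. Dab1 (ENSMUSG00000028519, chr4:103619359-104744844, plus strand), the adaptor through which reelin receptors signal in neurons, had the widest range of all 212 genes. It measured 121 CPM at ZT2, 81.9 and 77.98 CPM at ZT6, 41.3 and 36.4 CPM at ZT10, 41.8 and 22.5 CPM at ZT14, 55.8 and 66.1 CPM at ZT18, and 92 and 129 CPM at ZT22, with a range of 4.18-fold and a peak at ZT 0.82 (adjusted p = 0.00245). Its lowest library was ZT14 replicate 2, and its ZT2 and ZT22 libraries were the 3 highest. Ddc (ENSMUSG00000020182, chr11:11814101-11898144, minus strand), the decarboxylase that makes serotonin and dopamine, measured 95.7 CPM at ZT2, 79.2 and 103 CPM at ZT6, 52.7 and 49.8 CPM at ZT10, 42.4 and 30.5 CPM at ZT14, 46.7 and 63.6 CPM at ZT18, and 77.7 and 125 CPM at ZT22. The ZT22 libraries differed between replicates more than those of the other times, and the highest was one of the 3 libraries high in proximal markers. The range of Ddc was 3.01-fold with a peak at ZT 1.69 (adjusted p = 0.0171), and the call ended without ZT10 replicate 2 (adjusted p = 0.0517). The part of tissue region in these values was not tested.

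Near ZT6, in mid-light, 8 genes peaked. Ky (ENSMUSG00000035606, chr9:102505750-102546239, plus strand), a peptidase-like protein known from skeletal muscle, measured 5.86 CPM at ZT2, 9.93 and 7.67 CPM at ZT6, 8.87 and 8.44 CPM at ZT10, 3.33 and 3.22 CPM at ZT14, 3.57 and 3.98 CPM at ZT18, and 4.08 and 4.61 CPM at ZT22. All ZT6 and ZT10 libraries lay above those of the other times, without overlap. The range was 2.53-fold (adjusted p = 0.00954). Procr, the endothelial receptor of protein C, ran from 1.26 to 3.27 CPM, again with its 4 highest libraries at ZT6 and ZT10 (range 2.04-fold, adjusted p = 0.0156). Bfsp1, the intermediate filament protein filensin of the eye lens, ran from 4.29 to 6.84 CPM (range 1.54-fold, adjusted p = 0.0161). Fbn1, the microfibril protein fibrillin 1, ran from 23.7 to 46.7 CPM (range 1.62-fold, adjusted p = 0.041). The call of Procr ended without ZT6 replicate 1 (adjusted p = 0.0649) or without ZT18 replicate 2 (adjusted p = 0.0571), and that of Bfsp1 without ZT6 replicate 1 (adjusted p = 0.0667) or without ZT6 replicate 2 (adjusted p = 0.0574). That of Fbn1 ended without ZT2 replicate 2, either ZT6 library, ZT10 replicate 2, ZT14 replicate 1, either ZT18 library or either ZT22 library (adjusted p 0.0536 to 0.16).

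Near ZT10, in the late light phase, 39 genes peaked. Ccdc116 (ENSMUSG00000022768, chr16:17139064-17147229, minus strand), a coiled-coil protein, had the smallest p there. It measured 16.9 CPM at ZT2, 22.9 and 23.1 CPM at ZT6, 27.1 and 27.98 CPM at ZT10, 17.04 and 16.01 CPM at ZT14, 8.77 and 10.1 CPM at ZT18, and 10.5 and 11.01 CPM at ZT22. The ZT10 libraries lay highest and the ZT18 and ZT22 libraries lowest, with a range of 2.78-fold and a peak at ZT 8.07 (SE 0.3 h, adjusted p = 2.43e-05). Cipc (ENSMUSG00000034157, chr12:86947043-86965362, plus strand), a repressor that binds CLOCK, measured 49.96 CPM at ZT2, 64.4 and 59.9 CPM at ZT6, 97.3 and 98.1 CPM at ZT10, 86.3 and 103 CPM at ZT14, 64.1 and 55.2 CPM at ZT18, and 44.6 and 41.9 CPM at ZT22. All ZT10 and ZT14 libraries lay above those of the other times, with a range of 2.38-fold and a peak at ZT 11.7 (adjusted p = 8.78e-05). Tns4 (ENSMUSG00000017607, chr11:99065678-99089306, minus strand), a tensin of focal adhesions, measured 59.01 CPM at ZT2, 109.7 and 76.5 CPM at ZT6, 123 and 148 CPM at ZT10, 71.6 and 86.3 CPM at ZT14, 43.3 and 29.99 CPM at ZT18, and 38.4 and 29.3 CPM at ZT22. It ranged 3.99-fold with a peak at ZT 9.06 (adjusted p = 0.000956), a wider range than those of Ccdc116 and Cipc.

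Also in this window, and chosen after its values were seen, was Cyp2u1. This cytochrome P450, which hydroxylates long-chain fatty acids, ran from 12.9 to 54.9 CPM with a range of 3.202-fold (adjusted p = 0.00104). Cyp2u1 overlaps 4930534D22Rik on the opposite strand by 585 bases, and this neighbour was called with a peak within 1 h of that of Cyp2u1. In all, 32 of the 212 genes overlapped or lay within 1000 bases of another called gene. The strand setting of the counting is not given in the sources used here, so reads of such pairs cannot be told apart.

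Near ZT14, just after lights off, 46 genes peaked. Rev1 (ENSMUSG00000026082, chr1:38052786-38129801, minus strand), a DNA polymerase that copies past damaged bases, measured 18.8 CPM at ZT2, 21.2 and 19.6 CPM at ZT6, 28.02 and 29.2 CPM at ZT10, 35.4 and 33.5 CPM at ZT14, 28.7 and 27.6 CPM at ZT18, and 20.6 and 21.5 CPM at ZT22. Both ZT14 libraries lay above all others, the range was 1.85-fold, and the peak of ZT 14.1 had an SE of 0.198 h (adjusted p = 0.000161). Usp2 (ENSMUSG00000032010, chr9:44067021-44095627, plus strand), a ubiquitin protease known as an output of the clock, measured 21.4 CPM at ZT2, 28.03 and 25.1 CPM at ZT6, 46.5 and 55.5 CPM at ZT10, 66.6 and 49.1 CPM at ZT14, 33.5 and 43.2 CPM at ZT18, and 24.99 and 28.2 CPM at ZT22. The ZT10 and ZT14 libraries were the 4 highest, with a range of 2.72-fold and a peak at ZT 13.4 (adjusted p = 0.000803). Akr1c19, an aldo-keto reductase, ran from 152 to 327 CPM (range 2.12-fold, adjusted p = 0.000169). The related Akr1c13 ranged 1.58-fold with a peak at ZT 14.1 (adjusted p = 0.00208) and Akr1c14 ranged 1.88-fold with a peak at ZT 12.5 (adjusted p = 0.0132). The call of Akr1c14 ended without ZT2 replicate 2 (adjusted p = 0.0568), and reads shared among these close copies are uncertain. Camta1, a calmodulin-binding transcription factor, ran from 132 to 248 CPM (range 1.87-fold, adjusted p = 0.00052). Its annotated span encloses the clock gene Per3, with 41014 shared bases on the same strand. Camta1 peaked at ZT 12.8 and Per3 at ZT 12.4, and the part of Per3 reads in the Camta1 value was not tested.

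Near ZT18, in mid-dark, 19 genes peaked. Lingo4 (ENSMUSG00000044505, chr3:94398517-94404501, plus strand), a membrane protein with leucine-rich repeats, had the smallest p of all 212 genes. It measured 1.44 CPM at ZT2, 1.103 and 1.23 CPM at ZT6, 2.18 and 2.07 CPM at ZT10, 4.52 and 4.65 CPM at ZT14, 6.74 and 4.86 CPM at ZT18, and 3.31 and 3.15 CPM at ZT22. The ZT18 libraries lay highest and the ZT2 and ZT6 libraries lowest, with a range of 3.904-fold and a peak at ZT 17.01 (SE 0.196 h, adjusted p = 1.63e-05). Lingo4 is among the 32 genes that overlapped or lay within 1000 bases of another called gene, and the part of reads running on from a neighbour was not tested. Fmo2 (ENSMUSG00000040170, chr1:162874317-162898726, minus strand), a flavin monooxygenase, measured 30.7 CPM at ZT2, 30.1 and 20.8 CPM at ZT6, 30.3 and 30.3 CPM at ZT10, 76.7 and 68.3 CPM at ZT14, 64.7 and 56.1 CPM at ZT18, and 43.1 and 42.1 CPM at ZT22. All ZT14 and ZT18 libraries lay above the others (range 2.85-fold, adjusted p = 0.00766). Ces1d, a carboxylesterase that also splits triglycerides, ran from 12.2 to 54.9 CPM (range 4.06-fold, adjusted p = 0.0098), and its reads may be shared with near copies of the Ces1 cluster.

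Near ZT22, at the end of the dark phase, 72 genes peaked, more than in any other window. St5 (ENSMUSG00000031024, chr7:109523911-109703605, minus strand), a DENN-domain protein that activates a Rab GTPase in human cells, measured 55.1 CPM at ZT2, 33.5 and 36.6 CPM at ZT6, 26.2 and 24.8 CPM at ZT10, 28.4 and 24.6 CPM at ZT14, 35.9 and 43.8 CPM at ZT18, and 50.9 and 58.2 CPM at ZT22. Ypel2 (ENSMUSG00000018427, chr11:86936425-86993707, minus strand), of the yippee-like family, measured 73.5 CPM at ZT2, 33.2 and 31.4 CPM at ZT6, 20.5 and 25.02 CPM at ZT10, 36.5 and 31.4 CPM at ZT14, 69.2 and 58.4 CPM at ZT18, and 68.8 and 77.1 CPM at ZT22. Both were lowest at ZT10 or ZT14 and high at ZT22 and ZT2, with ranges of 2.32-fold for St5 (adjusted p = 7.44e-05) and 3.37-fold for Ypel2 (adjusted p = 7.44e-05). Ier5, an immediate early gene, ran from 33.3 to 99.4 CPM with its 4 highest libraries at ZT18 and ZT22 (range 2.61-fold, adjusted p = 8.59e-05). Arrb1 (ENSMUSG00000018909, chr7:99535466-99606771, plus strand), beta-arrestin 1 of receptor desensitisation, measured 251 CPM at ZT2, 200.4 and 203 CPM at ZT6, 142 and 153 CPM at ZT10, 154 and 159 CPM at ZT14, 219.7 and 219 CPM at ZT18, and 264 and 266 CPM at ZT22. Its replicates were close at every time, the range was 1.87-fold and the peak fell at ZT 23.4 (SE 0.209 h, adjusted p = 0.000103). Mir326 lies within Arrb1 and was also called.

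Other genes that peaked in this window were chosen after their values were seen. Egfr, the receptor of epidermal growth factor, ran from 44.9 to 78.1 CPM (range 1.596-fold, peak ZT 22.8, adjusted p = 0.00628). Sfn, the 14-3-3 sigma protein of epithelial cells, ran from 52.3 to 140 CPM (range 2.28-fold, peak ZT 20.7, adjusted p = 0.000491). Dhrs9, a retinol dehydrogenase, ran from 0.903 to 6.78 CPM (range 4.103-fold, adjusted p = 0.00151). Spon2, a secreted matrix protein, ran from 3.36 to 14.4 CPM (range 3.38-fold, peak ZT 23.9, adjusted p = 0.00382). Skil, a repressor of TGF-beta signalling, ran from 89.8 to 226 CPM (range 2.06-fold, adjusted p = 0.00498), and Ppp1r14d, an inhibitor of protein phosphatase 1, from 49.6 to 126 CPM (range 2.38-fold, adjusted p = 0.000262). Each kept its call whichever single library was left out.

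**Figure D3:**
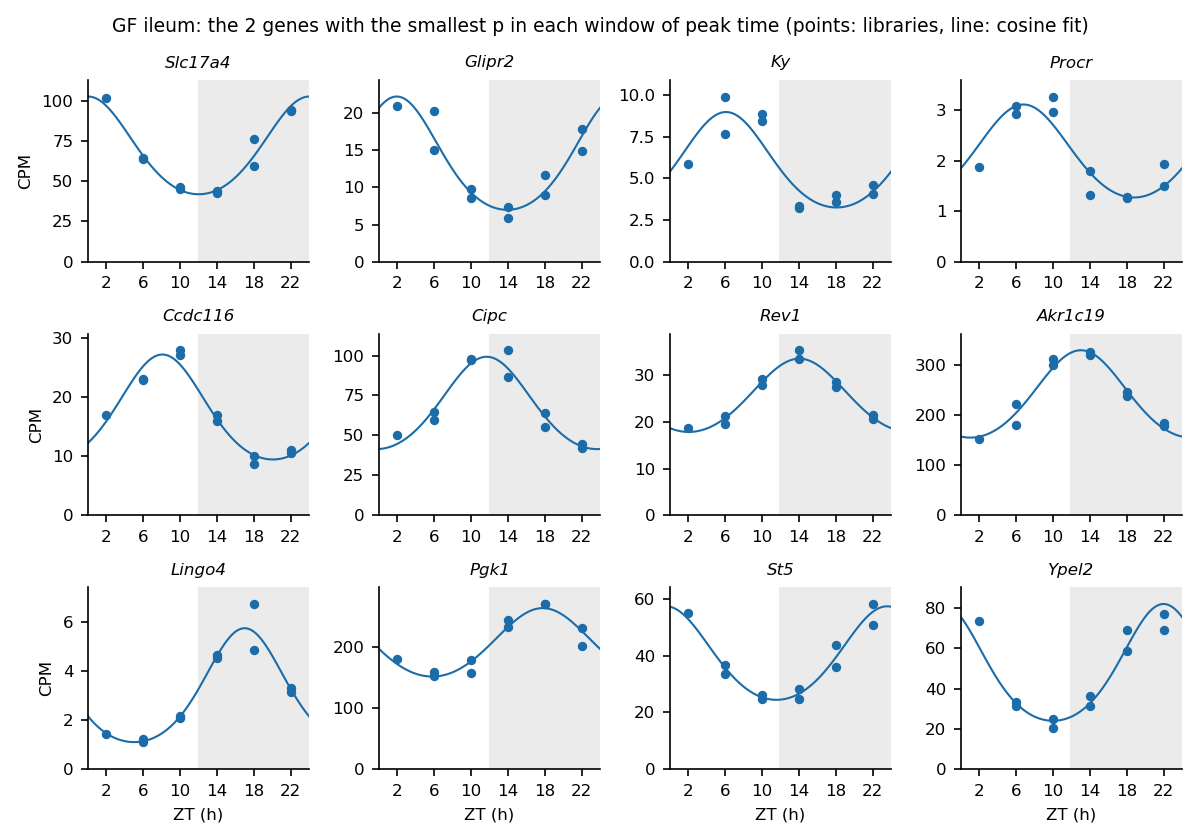
CPM (y axes, from 0) against ZT in h (x axes) for the 2 genes with the smallest p in each window of peak time. Points are the 11 GF ileum libraries, lines the fitted cosines, and the grey band ZT12 to ZT24, and the panels run from genes high at ZT2, such as Slc17a4, to genes high at ZT22, such as St5.

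By function, the rhythmic genes of sugar digestion and uptake peaked from late light to early dark. Of 17 genes tested, 4 were called, against 1.39% of all genes, with a median range of 1.45-fold over the list, against 1.14-fold over all genes. Sis (ENSMUSG00000027790, chr3:72888557-72967863, minus strand), the brush-border enzyme sucrase-isomaltase, measured 3082 CPM at ZT2, 3814 and 4008 CPM at ZT6, 4739 and 5497 CPM at ZT10, 5166 and 5344 CPM at ZT14, 4352 and 3891 CPM at ZT18, and 3081 and 2807 CPM at ZT22. The ZT10 and ZT14 libraries lay above all others, with a range of 1.89-fold and a peak at ZT 12.2 (SE 0.295 h, adjusted p = 0.00219). Mgam (ENSMUSG00000068587, chr6:40628831-40769123, plus strand), the starch-splitting maltase-glucoamylase, measured 3169 CPM at ZT2, 3712 and 3063 CPM at ZT6, 4221 and 4973 CPM at ZT10, 4797 and 4159 CPM at ZT14, 4094 and 3764 CPM at ZT18, and 3065 and 2848 CPM at ZT22, with a range of 1.62-fold and a peak at ZT 12.7 (adjusted p = 0.0386). Its ZT10 and ZT14 libraries were also the 4 highest. Slc5a1 (ENSMUSG00000011034, chr5:33104219-33162870, plus strand), the sodium-glucose carrier SGLT1, measured 1017 CPM at ZT2, 1412 and 1418 CPM at ZT6, 1483 and 1825 CPM at ZT10, 2575 and 1648 CPM at ZT14, 1454 and 1548 CPM at ZT18, and 1019 and 1201 CPM at ZT22. The ZT14 libraries differed, at 2575 and 1648 CPM, the first of them 1 of the 3 libraries high in proximal markers, whose part in this value was not tested. The range was 1.903-fold with a peak at ZT 12.8 (adjusted p = 0.0315).

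Slc2a5 (ENSMUSG00000028976, chr4:150119283-150144169, plus strand), the fructose carrier GLUT5, had the widest range of the sugar list that passed the test. It measured 23.03 CPM at ZT2, 61.4 and 67.1 CPM at ZT6, 67.2 and 85.9 CPM at ZT10, 63.1 and 42.02 CPM at ZT14, 24.1 and 29.6 CPM at ZT18, and 16.6 and 33.7 CPM at ZT22. The range was 3.59-fold, with a peak at ZT 9.62, ahead of the other 3 genes (adjusted p = 0.0296). The 6 libraries of ZT6, ZT10 and ZT14 lay above the other 5. Of these 4 calls, that of Sis did not depend on any single library. The call of Mgam ended without ZT2 replicate 2, ZT6 replicate 1, either ZT10 library, either ZT14 library, either ZT18 library or either ZT22 library (adjusted p 0.0504 to 0.108). That of Slc5a1 ended without ZT2 replicate 2, ZT6 replicate 1, ZT10 replicate 2, ZT18 replicate 2 or ZT22 replicate 1 (adjusted p 0.0602 to 0.12), and that of Slc2a5 without either ZT6 library, either ZT10 library, either ZT18 library or ZT22 replicate 1 (adjusted p 0.0632 to 0.105). Slc5a1 overlaps the predicted gene Gm15936 by 460 bases on the same strand, and this neighbour was also called.

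The list of ion and water transport had 3 of 26 tested genes called, against 1.39% of all genes. Its median range was 1.21-fold, against 1.14-fold over all genes. Atp1b1, the beta subunit of the sodium pump, outside the list and chosen after its values were seen, ran from 720.5 to 1348 CPM with a peak at ZT 12.3 (range 1.65-fold, adjusted p = 0.0117). The 2 phosphate carriers of the list peaked about 12 h apart. Slc34a2 (ENSMUSG00000029188, chr5:53038081-53071664, plus strand), the sodium-phosphate carrier NaPi-IIb of the ileal brush border, measured 1743 CPM at ZT2, 938 and 682 CPM at ZT6, 308 and 409 CPM at ZT10, 690.2 and 598 CPM at ZT14, 1298 and 1066 CPM at ZT18, and 1385 and 1509 CPM at ZT22. The ZT2, ZT18 and ZT22 libraries exceeded 1000 CPM and all others were below, with a range of 4.03-fold and a peak at ZT 22.8 (SE 0.548 h, adjusted p = 0.00715). Slc20a1 (ENSMUSG00000027397, chr2:129198764-129211616, plus strand), the phosphate carrier PiT-1, measured 30.3 CPM at ZT2, 45.8 and 35.03 CPM at ZT6, 63.95 and 69.03 CPM at ZT10, 37.2 and 58.4 CPM at ZT14, 43.5 and 33.8 CPM at ZT18, and 25.3 and 23.1 CPM at ZT22. Its ZT10 libraries were the highest and its ZT22 libraries the lowest, with a range of 2.38-fold and a peak at ZT 11.1 (SE 0.697 h, adjusted p = 0.0182). The call of Slc20a1 ended without either ZT10 library, ZT14 replicate 2 or either ZT22 library (adjusted p 0.0537 to 0.0763), while that of Slc34a2 held in all 11 fits.

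**Figure D4:**
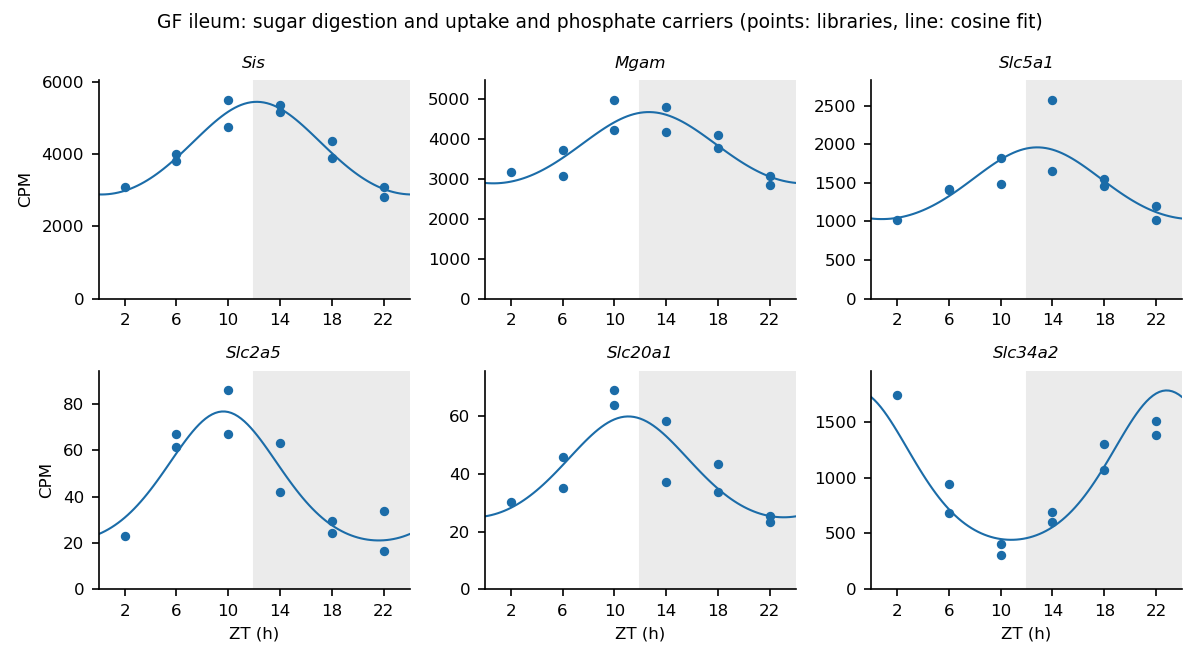
CPM (y axes, from 0) against ZT in h (x axes) for sugar digestion and uptake genes and the phosphate carriers Slc20a1 and Slc34a2. Points are the 11 GF ileum libraries, lines the fitted cosines, and the grey band ZT12 to ZT24, and Slc34a2 is lowest at ZT10, where Slc20a1 is highest.

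The called genes of glycolysis peaked in the dark phase. Of 18 tested, 3 were called, against 1.39% of all genes, with a median range of 1.27-fold, against 1.14-fold over all genes. Pgk1 (ENSMUSG00000062070, chrX:106187100-106203699, plus strand), phosphoglycerate kinase, measured 180.3 CPM at ZT2, 153 and 159 CPM at ZT6, 158 and 179 CPM at ZT10, 234 and 244 CPM at ZT14, 271 and 270.1 CPM at ZT18, and 232 and 201 CPM at ZT22. Both ZT18 libraries lay above all others, with a range of 1.74-fold and a peak at ZT 17.8 (adjusted p = 0.00104). Pkm, pyruvate kinase, ran from 385 to 618 CPM with a peak at ZT 16.4 (range 1.48-fold, adjusted p = 0.0323). Pfkfb4, which sets the level of fructose 2,6-bisphosphate, ran from 61.7 to 128 CPM with a peak at ZT 23.8 (range 1.799-fold, adjusted p = 0.0138). Hif1a, the oxygen-sensitive activator of glycolysis genes, is in no list and ran from 62.4 to 119 CPM with a peak at ZT 13.4 (range 1.63-fold, adjusted p = 0.00997). The call of Pgk1 held whichever library was left out. That of Pfkfb4 ended without ZT2 replicate 2 (adjusted p = 0.0568), that of Hif1a without ZT2 replicate 2 (adjusted p = 0.0581), and that of Pkm without ZT2 replicate 2, either ZT6 library, ZT10 replicate 2, either ZT14 library, ZT18 replicate 2 or ZT22 replicate 1 (adjusted p 0.0561 to 0.111).

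Among 23 tested genes of fatty acid oxidation and ketone synthesis 3 were called, against 1.39% of all genes. The median range of this list was 1.25-fold, against 1.14-fold over all genes. Ppara (ENSMUSG00000022383, chr15:85734983-85802819, plus strand), the nuclear receptor that switches on fatty acid oxidation, measured 51.5 CPM at ZT2, 43.6 and 46.1 CPM at ZT6, 57.01 and 56.9 CPM at ZT10, 81.7 and 75.8 CPM at ZT14, 74.2 and 64.4 CPM at ZT18, and 52.7 and 51.9 CPM at ZT22. The ZT14 libraries and 1 ZT18 library were its 3 highest, with a range of 1.72-fold and a peak at ZT 15.4 (adjusted p = 0.00498). Slc25a20, the mitochondrial carnitine-acylcarnitine carrier, ran from 60.9 to 119 CPM with a peak at ZT 22.2 (range 1.66-fold, adjusted p = 0.0119). The plasma membrane carnitine carrier Slc22a5, outside the list, peaked at ZT 23.1 (range 1.76-fold, adjusted p = 0.0149). Acot2, a mitochondrial acyl-CoA thioesterase, ran from 3.25 to 9.2 CPM with a peak at ZT 21.3 (range 2.09-fold, adjusted p = 0.0315). The call of Slc25a20 ended without ZT22 replicate 1 (adjusted p = 0.0547), and that of Acot2 without ZT2 replicate 2, either ZT6 library, either ZT10 library, ZT14 replicate 2, ZT18 replicate 2 or ZT22 replicate 1 (adjusted p 0.0537 to 0.114).

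In fat absorption 1 of 24 tested genes was called, and in fatty acid synthesis 1 of 15, against 1.39% of all genes. Dgat2, which makes triglyceride from diglyceride, ran from 83.01 to 131 CPM with a peak at ZT 19.3 (range 1.55-fold, adjusted p = 0.0148). Srebf1, a transcription factor of fatty acid synthesis, ran from 67.7 to 118 CPM with a peak at ZT 18.4 (range 1.49-fold, adjusted p = 0.0156). Acsl1, an acyl-CoA synthetase chosen after its values were seen, peaked at ZT 17.6 (range 1.51-fold, adjusted p = 0.0139). The call of Dgat2 ended without ZT6 replicate 1 (adjusted p = 0.0649) or without ZT10 replicate 2 (adjusted p = 0.0503), that of Srebf1 without ZT6 replicate 1 (adjusted p = 0.0647) or without ZT6 replicate 2 (adjusted p = 0.0507), and that of Acsl1 without ZT6 replicate 2 (adjusted p = 0.0508). Insig2, which holds back the processing of sterol regulatory proteins, peaked on the other side of the day at ZT 1.16 and ran from 31.8 to 72.1 CPM (range 1.96-fold, adjusted p = 0.00498). None of 25 sterol synthesis genes passed, and 8 of them had an unadjusted p under 0.05, against 11.8% of all genes tested.

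Drug metabolism and efflux had 3 of 32 tested genes called, against 1.39% of all genes. The median range was 1.36-fold, against 1.14-fold over all genes. Por (ENSMUSG00000005514, chr5:135670033-135735326, plus strand), which passes electrons to all microsomal cytochromes P450, measured 76.4 CPM at ZT2, 82.5 and 75.7 CPM at ZT6, 103 and 107 CPM at ZT10, 143 and 119 CPM at ZT14, 85.4 and 109.5 CPM at ZT18, and 78.6 and 84.95 CPM at ZT22. Both ZT14 libraries were the highest, with a range of 1.699-fold and a peak at ZT 13.8 (adjusted p = 0.0134). Abcc2, the apical export pump MRP2, ran from 156 to 518 CPM with a peak at ZT 9.77 (range 2.395-fold, adjusted p = 0.0327). Gsta1, a glutathione transferase with near copies in the genome, ran from 53.3 to 106 CPM with a peak at ZT 14.8 (range 1.79-fold, adjusted p = 0.0247). The call of Abcc2 ended without ZT2 replicate 2, ZT6 replicate 1, either ZT10 library, either ZT14 library, either ZT18 library or ZT22 replicate 1 (adjusted p 0.0598 to 0.122), and that of Gsta1 without ZT2 replicate 2, either ZT6 library, ZT10 replicate 2, ZT14 replicate 2 or ZT18 replicate 2 (adjusted p 0.0543 to 0.105).

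Nucleotide and polyamine metabolism gave 1 called gene each, of 20 and 24 tested, against 1.39% of all genes. Gm49342, listed as Pnp in the authors' table (ENSMUSG00000021871, chr14:50944517-50963136, plus strand), is a purine nucleoside phosphorylase and measured 242 CPM at ZT2, 164 and 189.9 CPM at ZT6, 126 and 133 CPM at ZT10, 166 and 151 CPM at ZT14, 213 and 231 CPM at ZT18, and 237 and 278 CPM at ZT22. The ZT2 and ZT22 libraries were the 3 highest and the ZT10 libraries the lowest, with a range of 1.97-fold and a peak at ZT 22.6 (adjusted p = 0.00052). Its close copy Pnp2, which it overlaps by 7145 bases on the same strand, peaked at ZT 23.2 (range 2.55-fold, adjusted p = 0.0014), so reads of both genes are uncertain. Azin1, an inhibitor of the antizyme that degrades ornithine decarboxylase, ran from 276 to 411 CPM with a peak at ZT 10.3 (range 1.39-fold, adjusted p = 0.0386). The call of Azin1 ended without ZT2 replicate 2, either ZT6 library, ZT10 replicate 2, either ZT14 library, either ZT18 library or either ZT22 library (adjusted p 0.0593 to 0.155).

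At cell junctions 2 of 15 tested genes were called, against 1.39% of all genes. The median range was 1.25-fold, against 1.14-fold over all genes. Cldn4 (ENSMUSG00000047501, chr5:134945119-134946934, minus strand), a claudin that seals the space between epithelial cells, measured 82.6 CPM at ZT2, 54.8 and 52.4 CPM at ZT6, 30.7 and 48.4 CPM at ZT10, 60.4 and 70.3 CPM at ZT14, 81.7 and 81.2 CPM at ZT18, and 99.6 and 119.8 CPM at ZT22. The ZT22 libraries were the highest and the ZT10 libraries the lowest, with a range of 2.48-fold and a peak at ZT 21.6 (adjusted p = 0.00628). Tjp3, the scaffold protein ZO-3, ran from 148 to 224 CPM with a peak at ZT 2.21 (range 1.36-fold, adjusted p = 0.0417). The call of Tjp3 ended without ZT2 replicate 2, either ZT6 library, ZT10 replicate 2, either ZT14 library, either ZT18 library or either ZT22 library (adjusted p 0.0578 to 0.168). Itga6, a laminin receptor of the basal side chosen after its values were seen, peaked at ZT 13.8 and ran from 341 to 554 CPM (range 1.62-fold, adjusted p = 0.0112). Its call ended without ZT14 replicate 2 (adjusted p = 0.0504).

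The list of clock outputs and daily regulators outside the clock had 8 of 28 tested genes called, against 1.39% of all genes. Its members were listed as such, with earlier results of these data known, so this share is not independent of that choice. Their median range was 1.51-fold over those tested, against 1.14-fold over all genes. Of the 8 called, 5 peaked between ZT12 and ZT18. Coq10b, a coenzyme Q binding protein of mitochondria (ENSMUSG00000025981, chr1:55052770-55072702, plus strand), measured 26.3 CPM at ZT2, 31.1 and 27.8 CPM at ZT6, 38.6 and 55.4 CPM at ZT10, 49.8 and 67.8 CPM at ZT14, 44.7 and 41.2 CPM at ZT18, and 26.7 and 30.5 CPM at ZT22. Its range was 2.31-fold with a peak at ZT 13.7 (adjusted p = 0.00312). Herpud1, of protein disposal at the endoplasmic reticulum, ran from 68.8 to 179.6 CPM with both ZT14 libraries highest (range 2.24-fold, adjusted p = 0.0103). Wee1, the kinase that delays entry into mitosis, ran from 9.14 to 25.4 CPM with its highest library at ZT14 and a peak at ZT 15.1 (range 2.09-fold, adjusted p = 0.0102). Wee1 was also the 1 called gene among 29 cell division genes, against 1.39% of all genes. Lonrf3, a RING-finger protein, peaked at ZT 20.4 and ran from 6.41 to 15.3 CPM (range 2.13-fold, adjusted p = 0.00034). Leo1, a subunit of the PAF1 elongation complex, peaked at ZT 21.8 (range 1.57-fold, adjusted p = 0.0383), and its call ended without ZT2 replicate 2, ZT6 replicate 1, either ZT10 library, either ZT14 library, ZT18 replicate 2 or either ZT22 library (adjusted p 0.0514 to 0.144).

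Heat shock and cold-inducible genes had 2 of 22 called, against 1.39% of all genes. The median range was 1.37-fold, against 1.14-fold over all genes. Rbm3, a cold-inducible RNA-binding protein, ran from 86.03 to 146 CPM with a peak at ZT 12.7 (range 1.51-fold, adjusted p = 0.0134). Hspa8, the constitutive HSP70 chaperone, ran from 655 to 1242 CPM with a peak at ZT 15.7 (range 1.79-fold, adjusted p = 0.0396). The small RNA gene Snord14e lies within Hspa8 and was also called. The call of Rbm3 ended without ZT2 replicate 2 (adjusted p = 0.0719) or without ZT14 replicate 2 (adjusted p = 0.0525). That of Hspa8 ended without ZT2 replicate 2, ZT6 replicate 1, either ZT10 library, ZT14 replicate 2 or either ZT18 library (adjusted p 0.0537 to 0.135).

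Several function lists had no called gene by edgeR, where 1.39% of all genes tested were called and 11.8% had an unadjusted p under 0.05. Endoplasmic reticulum folding had 0 of 21 tested genes called (3 at an unadjusted p under 0.05), peptide and amino acid uptake 0 of 20 (4), bile acid handling 0 of 13 (1), and stem cells and Wnt 0 of 19 (1). Ribosome biogenesis had 0 of 24 (2), glucocorticoid response 0 of 16 (8), immediate early genes 0 of 18 (2), antimicrobial and Paneth genes 0 of 24 (2), and antigen presentation 0 of 24 (6). The immediate early list does not hold Ier5, which was called and is described above. Sgk1 and Zbtb16, glucocorticoid-responsive genes chosen after their values were seen, had fitted ranges of 4.05-fold and 3.66-fold at adjusted p of 0.168 and 0.251. Among the lists of other cell types 1 gene was called, the pericyte receptor Pdgfrb of the stroma list (range 1.899-fold, adjusted p = 0.0184), whose call ended without ZT2 replicate 2 (adjusted p = 0.116) or without ZT10 replicate 2 (adjusted p = 0.0539) or without ZT14 replicate 2 (adjusted p = 0.0654). The other marker lists, which include goblet, enteroendocrine and tuft cells, smooth muscle, nerves and immune cells, gave none.

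Set against convR ileum, whose mice carry a gut flora, no gene passed the test of a difference in rhythm. The edgeR test of the cosine by status called 0 of 18082 genes (0%), with 608 (3.36%) at an unadjusted p under 0.05, and the DESeq2 likelihood-ratio test also called 0. The convR ileum on its own had 22 rhythmic genes among 16564 tested (0.133%), fewer than the 226 of GF ileum, but a gene that passes in one group and not in the other is not thereby shown to differ. Both convR ileum libraries labelled ZT6 stood apart, with the clock transcripts Arntl and Dbp near their ZT2 levels. Arntl lay at 24.1 and 26.6 CPM at ZT6 in GF ileum, against 62.6 and 54.2 CPM at ZT6 in convR ileum, where ZT2 gave 59.5 and 67.6 CPM. Of the 212 genes, 211 were tested in convR ileum and 5 were called there, which is 2.36% of the GF ileum list and 26.3% of the 19 genes called outside the clock in convR ileum. The 5 were Fst, Fbn1, Camta1, Fmo2 and Spon2, with peaks at most 1.32 h apart. A further reading without the threshold showed 123 of the 211 at an unadjusted p under 0.05 in convR ileum, against 8.74% of all genes tested there. Of the 211, 189 had a fitted peak within 4 h of that in GF ileum (89.6%), against 54.3% of the genes not called. Their median range was 1.76-fold in GF ileum, in which they were chosen, and 1.46-fold in convR ileum. Without both ZT6 libraries, convR ileum had 10 rhythmic genes among 16655 tested (0.06%), of which 5 belonged to the 211. Of the 5 genes named above, Spon2 alone was among them. In that setting 120 of the 211 had an unadjusted p under 0.05, 191 peaked within 4 h of GF ileum, and the test of a difference in rhythm again called 0 genes, with 587 of 18030 at an unadjusted p under 0.05.

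Fmo2 measured 30.7 CPM at ZT2, 30.1 and 20.8 CPM at ZT6, 30.3 and 30.3 CPM at ZT10, 76.7 and 68.3 CPM at ZT14, 64.7 and 56.1 CPM at ZT18, and 43.1 and 42.1 CPM at ZT22 in GF ileum, against 30.7 and 28.7 CPM at ZT2, 32.2 and 32.9 CPM at ZT6, 39.4 and 37.6 CPM at ZT10, 57.2 and 57.5 CPM at ZT14, 56.2 and 66.9 CPM at ZT18, and 30.9 and 48.6 CPM at ZT22 in convR ileum. The ZT14 and ZT18 libraries were high in both groups, with ranges of 2.85-fold in GF ileum and 2.09-fold in convR ileum (adjusted p of the difference = 1). Slc34a2 measured 1743 CPM at ZT2, 938 and 682 CPM at ZT6, 308 and 409 CPM at ZT10, 690.2 and 598 CPM at ZT14, 1298 and 1066 CPM at ZT18, and 1385 and 1509 CPM at ZT22 in GF ileum, against 1489 and 1282 CPM at ZT2, 1125 and 1235 CPM at ZT6, 791 and 439.9 CPM at ZT10, 342 and 478 CPM at ZT14, 892 and 779 CPM at ZT18, and 955 and 1094 CPM at ZT22 in convR ileum. Its fitted peak was ZT 22.8 in GF ileum and ZT 1.6 in convR ileum, with ranges of 4.03-fold in GF ileum and 3.08-fold in convR ileum, and the difference did not pass (adjusted p = 1).

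Fitted peaks came earlier in GF ileum than in convR ileum for 176 of the 211 genes, with a median difference (GF minus convR) of -1.82 h. The 14 called clock genes were all earlier, with a median of -1.46 h. Dbp lay at 38.9 and 32.4 CPM at ZT6 and 4.66 CPM at ZT2 in GF ileum, against 4.42 and 4.37 CPM at ZT6 and 4.33 and 3.13 CPM at ZT2 in convR ileum. Without both convR ileum libraries of ZT6 the median difference was -0.69 h, with 140 of 211 genes earlier, and -0.83 h for the clock with 12 of 14 earlier. These directions carry no test, and the genes share the same libraries.

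Set against GF duodenum, the first stretch of the small intestine in the same kind of mice, 4 of 17909 genes passed the test of a difference in rhythm (0.0223%), with 761 (4.25%) at an unadjusted p under 0.05. This comparison and that with convR ileum share the GF ileum libraries. The ileum and duodenum libraries carry the same replicate numbers, and the labels do not say whether both regions came from the same mouse. The test treats all libraries as independent. Ppara measured 51.5 CPM at ZT2, 43.6 and 46.1 CPM at ZT6, 57.01 and 56.9 CPM at ZT10, 81.7 and 75.8 CPM at ZT14, 74.2 and 64.4 CPM at ZT18, and 52.7 and 51.9 CPM at ZT22 in GF ileum, against 38.02 and 43.7 CPM at ZT2, 80.2 and 64.6 CPM at ZT6, 89.5 and 95.2 CPM at ZT10, 90.3 and 79.8 CPM at ZT14, 48.4 and 49.99 CPM at ZT18, and 41.1 and 40.8 CPM at ZT22 in GF duodenum. It was high at ZT14 and ZT18 in ileum and from ZT6 to ZT14 in duodenum, with peaks at ZT 15.4 in ileum and ZT 10.8 in duodenum and ranges of 1.72-fold in ileum and 2.53-fold in duodenum (adjusted p of the difference = 0.00136). In convR ileum, with all libraries, Ppara had a fitted peak at ZT 15.6, but its rhythm was not called there (adjusted p = 0.2015 by edgeR).

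Suco (ENSMUSG00000040297, chr1:161816114-161876682, minus strand), a SUN-domain protein of the endoplasmic reticulum known for its part in bone formation, measured 89.4 CPM at ZT2, 95.2 and 91.7 CPM at ZT6, 83.97 and 96.2 CPM at ZT10, 96.3 and 85.3 CPM at ZT14, 89.3 and 84.7 CPM at ZT18, and 91.7 and 101 CPM at ZT22 in GF ileum, against 99.9 and 107 CPM at ZT2, 136 and 161 CPM at ZT6, 222 and 182 CPM at ZT10, 202 and 171 CPM at ZT14, 127 and 136 CPM at ZT18, and 103 and 116 CPM at ZT22 in GF duodenum. It stayed within 83.97 to 101 CPM in ileum with no rhythm called (range 1.06-fold, adjusted p = 0.925) and ranged 2.004-fold in duodenum with a peak at ZT 11.5 (adjusted p of the difference = 0.00531). Glipr2 measured 20.98 CPM at ZT2, 14.99 and 20.3 CPM at ZT6, 8.62 and 9.79 CPM at ZT10, 5.87 and 7.43 CPM at ZT14, 11.7 and 8.95 CPM at ZT18, and 17.9 and 14.8 CPM at ZT22 in GF ileum, against 5.15 and 4.85 CPM at ZT2, 2.73 and 3.296 CPM at ZT6, 2.73 and 2.48 CPM at ZT10, 3.22 and 2.54 CPM at ZT14, 5.08 and 4.495 CPM at ZT18, and 5.74 and 6.27 CPM at ZT22 in GF duodenum. Its peaks were ZT 1.93 in ileum and ZT 22.2 in duodenum (adjusted p of the difference = 0.0209). Cemip (ENSMUSG00000052353, chr7:83932857-84086502, minus strand), a hyaluronan-binding protein, measured 2.73 CPM at ZT2, 2.01 and 1.59 CPM at ZT6, 1.74 and 1.86 CPM at ZT10, 3.67 and 2.81 CPM at ZT14, 3.37 and 1.95 CPM at ZT18, and 2.01 and 2.53 CPM at ZT22 in GF ileum, against 2.35 and 1.54 CPM at ZT2, 4.95 and 2.56 CPM at ZT6, 17.7 and 10.5 CPM at ZT10, 12.9 and 11.7 CPM at ZT14, 5.91 and 5.81 CPM at ZT18, and 2.75 and 1.05 CPM at ZT22 in GF duodenum. It was low at all times in ileum (range 1.42-fold, adjusted p = 0.57) and highest at ZT10 and ZT14 in duodenum (range 7.702-fold, peak ZT 12.4, adjusted p of the difference = 0.0345).

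The differences of Ppara and Suco passed whichever GF ileum library was left out. That of Glipr2 ended without ZT6 replicate 2 (adjusted p = 0.0815) or ZT18 replicate 2 (adjusted p = 0.0656). That of Cemip ended without ZT2 replicate 2 (0.180), ZT6 replicate 1 (0.0502) or 2 (0.0808), ZT10 replicate 1 (0.129) or 2 (0.131), ZT14 replicate 2 (0.1002), ZT18 replicate 1 (0.0577), or ZT22 replicate 1 (0.0526) or 2 (0.0959). It also ended with no filter on low counts (0.162). In GF duodenum Dbp, read here as a clock marker, differed within ZT6 (24.8 and 72.2 CPM in replicates 1 and 2) and within ZT14 (136 and 29.2 CPM). Without ZT6 replicate 1 and ZT14 replicate 1 of GF duodenum the differences of Glipr2 and Cemip no longer passed (adjusted p = 0.08404 for each). With all libraries, the DESeq2 likelihood-ratio test called 20 genes.

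**Figure D5:**
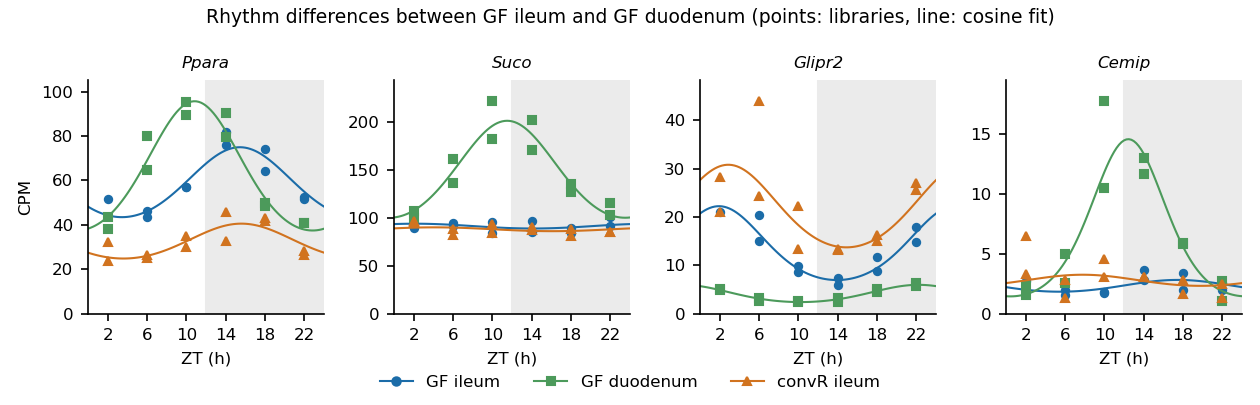
CPM (y axes, from 0) against ZT in h (x axes) for Ppara, Suco, Glipr2 and Cemip in GF ileum (circles), GF duodenum (squares) and convR ileum (triangles), with 1 point per library and the fitted cosine as a line. Ppara peaks later in GF ileum than in GF duodenum, and Suco is flat in both ileum groups.

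The duodenum had its own, longer list of rhythmic genes, 432 of 16097 tested (2.68%). Of the 212 genes, 210 were tested there, 87 were called and 159 had an unadjusted p under 0.05, against 16.8% of all genes tested there. The 87 make 41.0% of the GF ileum list and 20.5% of the 424 genes called outside the clock in duodenum. Among them 66 had peaks within 2 h of each other, with a median absolute difference of 1.16 h. The largest was that of Dgat2, at ZT 19.3 in ileum and ZT 13.5 in duodenum, a difference that the interaction test did not call (adjusted p = 0.332). The sugar genes Slc5a1 and Mgam peaked at ZT 12.8 and ZT 12.7 in ileum, against ZT 10.9 and ZT 11.1 in duodenum. Neither of these sugar genes passed the test of a difference in rhythm. Fitted peaks came later in GF ileum than in GF duodenum for 161 of 210 genes, with a median difference (ileum minus duodenum) of 1.06 h, and for 13 of the 14 clock genes, with a median of 1.32 h. Without the 2 duodenum libraries named above, the medians were 1.09 h and 1.37 h. Of the 210 genes, 197 had peaks within 4 h in both regions (93.8%), against 54.9% of genes not called.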

How the data were processed

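Total RNA of duodenum and ileum was sequenced as stranded, ribosome-depleted libraries made from 250 ng with 12 PCR cycles, in pools of 24, and sequenced from both ends for 100 cycles, per the labels' protocols. The deposited table holds raw exon counts per gene, made by the authors. Reads were aligned with STAR 2.4.0i to mm10, per the submitters' processing notes, while the sources used here do not give the counting tool, gene annotation or strandedness option. Of 38087 genes, 36308 were matched by identifier to GENCODE M21 for symbols and coordinates (GRCm38).

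Within the 11 GF ileum libraries, genes were filtered with the edgeR rule at a minimum of 10 counts and scaled by TMM. A 24 h cosine was tested with edgeR 4.0.16 (quasi-likelihood, two-sided, Benjamini-Hochberg over all genes tested). Peak, range and their errors were estimated by fitting the cosine to log2(CPM + 0.5) by least squares. Rhythm differences were tested as the interaction of the cosine with microbial status in ileum, or with region in GF mice, over both groups. Alternatives used limma 3.58.1, DESeq2 1.42.0, other scalings, filters and designs, and each library left out in turn, in R 4.3.3. The procedure was tested on simulated data.

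Outside the clock list, the text names the 4 genes with the smallest p in each of 6 windows of peak time, with a mean of at least 2 CPM and a range of at least 1.5-fold, then up to 2 called members of each function list and the genes called for a rhythm difference. Some genes that this rule picks are not reported here. Further members of lists and other genes named were chosen after their values were seen. The members and lists were chosen with earlier results of these data known. Depth was 24925638 to 36868777 counts per library, and the spread between the libraries of a time exceeded counting noise at every time with a pair.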

Additional observations from a re-analysis of the deposited data

Results flagged for a closer look

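A test of the difference between regions passed for 4 genes in GF mice, with edgeR's quasi-likelihood interaction and Benjamini-Hochberg adjustment over all genes tested. Ppara peaked at ZT 15.4 in GF ileum and ZT 10.8 in GF duodenum (adjusted p = 0.001362). Suco had a range of 1.06-fold in GF ileum and 2.00-fold in GF duodenum (adjusted p = 0.005306). Glipr2 peaked at ZT 1.93 in GF ileum and ZT 22.2 in GF duodenum (adjusted p = 0.02095). Cemip had a range of 1.42-fold in GF ileum and 7.70-fold in GF duodenum (adjusted p = 0.03453).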

How the results depend on the processing

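Of the 226 rhythmic genes in GF ileum, with 75 outside the clock in the light phase and 137 in the dark phase, the counts stayed within 1.5 times under DESeq2 size factors, library size only, no filter on low counts, limma, other pseudocounts and a range of at least 1.5-fold. The DESeq2 likelihood-ratio test called 642 (228 light, 399 dark), time as a factor 49 (10 light, 29 dark), and a range of at least 2-fold left 73 (24 light, 36 dark). Leaving out 1 library gave 152 to 219 genes, 43 to 78 in the light phase and 93 to 135 in the dark phase. The light-phase count was 43 without ZT2 replicate 2 or ZT10 replicate 2, 47 without ZT6 replicate 1 and 49 without ZT22 replicate 1. Chosen after seeing the data, a threshold of 0.1 gave 360 (124 light, 221 dark). Leaving out the 3 libraries high in proximal markers gave 438 (226 light, 198 dark), the cause of which was not tested. Of the 212 genes outside the clock, 155 were called without them, and 206 of 211 moved their peak by at most 1 h. A replicate block gave 192 genes (64 light, 116 dark), 0 differences from convR ileum and 4 from GF duodenum. The main tests did not pair libraries by replicate number. Correlations of deviations between libraries of the same number ran from -0.547 to 0.358 within GF ileum. They ran from -0.0287 to 0.373 with convR ileum and from -0.0675 to 0.0557 with GF duodenum. These values cannot show whether libraries of the same number share an animal. Differences from convR ileum stayed at 0 under every alternative run, also without both convR ileum libraries of ZT6 (chosen after seeing the data). Differences from GF duodenum numbered 20 by the DESeq2 likelihood-ratio test, 19 without the 3 libraries, 5 by library size only, 5 with no filter (where Cemip was not among them, adjusted p = 0.162), and 2 to 7 with 1 GF ileum library left out. Of 43 named genes, the call ended for 21 with time as a factor, 9 without the 3 libraries, 4 by library size only, 2 with no filter and 2 under the replicate block. No named gene moved its peak by more than 6 h in these alternatives. Among the genes called, the balance of light and dark peaks turned without the 3 libraries.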

Other observations

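Some rhythmic genes outside the fixed lists share a known role and were grouped after their values were seen, so these groups carry no test. Among genes of programmed cell death, Bbc3 (PUMA), a trigger of the mitochondrial route, peaked at ZT 0.05 (range 2.05-fold, adjusted p = 0.0327 by edgeR) and the death receptor Fas at ZT 23.5 (range 1.72-fold, adjusted p = 0.0207), close to Bok at ZT 0.61. Bcl2, which blocks the mitochondrial route, peaked at ZT 11.4 (range 1.73-fold, adjusted p = 0.0315). Other called genes linked to cell death peaked in late light and early dark. Bcl2l15, of the BCL-2 family, peaked at ZT 11.8 (adjusted p = 0.0301), Bnip3, a BH3-containing protein of mitochondria, at ZT 13.5 (adjusted p = 0.0396), Endog, a mitochondrial nuclease, at ZT 14.7 (adjusted p = 0.0117) and the stress-induced pseudokinase Trib3 at ZT 9.44 (adjusted p = 0.00954). The call of Bbc3 ended without ZT2 replicate 2, ZT6 replicate 1, ZT10 replicate 1, either ZT14 library, ZT18 replicate 1 or either ZT22 library (adjusted p 0.0507 to 0.121). The call of Fas ended without ZT14 replicate 2 (adjusted p = 0.0606) or without ZT22 replicate 1 (adjusted p = 0.0811) or without ZT22 replicate 2 (adjusted p = 0.063), and that of Bcl2 without ZT2 replicate 2, either ZT10 library, either ZT14 library, ZT18 replicate 2 or either ZT22 library (adjusted p 0.0504 to 0.116). The call of Bcl2l15 ended without ZT2 replicate 2, ZT6 replicate 1, ZT10 replicate 2, either ZT14 library or either ZT22 library (adjusted p 0.0676 to 0.108), that of Bnip3 without ZT2 replicate 2, either ZT6 library, ZT10 replicate 2, either ZT14 library, ZT18 replicate 1 or ZT22 replicate 2 (adjusted p 0.0563 to 0.172) and that of Endog without ZT14 replicate 2 (adjusted p = 0.0506), while that of Trib3 held.

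Genes of the matrix and its growth factors peaked at several times of day. Tgfb3, a transforming growth factor, peaked at ZT 2.35 (range 1.71-fold, adjusted p = 0.0129), Fst, which binds activins, at ZT 2.51 (range 2.15-fold, adjusted p = 0.023) and Col5a3, a fibrillar collagen chain, at ZT 3.39 (range 2.3-fold, adjusted p = 0.0386). Another collagen chain, Col24a1, peaked at ZT 9.38 (adjusted p = 0.0293), the protease Adamts15 at ZT 11.9 (adjusted p = 0.0123) and the laminin chain Lama3 at ZT 23.2 (range 3.07-fold, adjusted p = 0.00533). Near the peak of Egfr lay those of Dusp6, a phosphatase of the ERK kinases (ZT 21.8, range 1.88-fold, adjusted p = 0.0135), and Cdcp1, a membrane protein phosphorylated by SRC kinases (ZT 22.3, range 1.63-fold, adjusted p = 0.00208). Misp, an actin-bundling protein of microvillus rootlets, peaked at ZT 21.6 (range 1.67-fold, adjusted p = 0.0152). The calls of Cdcp1 and Misp held in all 11 fits that left out 1 library. That of Tgfb3 ended without ZT2 replicate 2 (adjusted p = 0.0521) or without ZT14 replicate 2 (adjusted p = 0.0546), that of Fst without ZT2 replicate 2, ZT6 replicate 1, ZT10 replicate 2 or ZT14 replicate 2 (adjusted p 0.0545 to 0.0723) and that of Dusp6 without ZT10 replicate 1 (adjusted p = 0.063). That of Col5a3 ended without ZT6 replicate 1, ZT10 replicate 2, either ZT14 library, either ZT18 library or ZT22 replicate 2 (adjusted p 0.0536 to 0.129), and that of Col24a1 without ZT2 replicate 2, ZT6 replicate 1, ZT10 replicate 1, ZT18 replicate 2 or either ZT22 library (adjusted p 0.0513 to 0.108), while those of Adamts15 and Lama3 held.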
